A study of Mus musculus with 12 samples.

Results

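The genes described here encode the SR proteins (Srsf) and the heterogeneous nuclear ribonucleoproteins (hnRNPs), the main families of RNA-binding proteins that decide which exons are joined. Members were all gene symbols that begin with Hnrnp, or with Srsf and a digit, and that had 10 or more estimated counts in at least 3 of the 12 libraries once the transcripts of a gene had been summed. All 31 symbols with such a name met this minimum, 11 Srsf genes and 20 Hnrnp genes, of 23183 gene symbols in all. They are covered by 74 of the 33299 RefSeq transcripts in the tables, of which 5 are noncoding, and 18 members have more than 1 transcript. The RNA came from the ventral hippocampus, a region tied to emotion, of wild-type male C57BL/6J mice that were 8 weeks old when naive, 3 to a group in 4 groups. C mice received no treatment. SS mice were restrained for 2 hours a day on 14 days, were classed as stress-susceptible and had no wheel. SES and SER mice were restrained in the same way, were classed as stress-susceptible and then had voluntary access to a running wheel. SES mice improved in behaviour after running, and SER mice showed little or no benefit. SES and SER therefore share restraint and running and were told apart by behaviour alone. Running lasted 14 days by the sample titles and 4 weeks by the protocol.

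SR proteins bind exons through RNA recognition motifs and recruit the spliceosome through a tail rich in arginine and serine, so that they mostly favour the use of an exon. The hnRNPs coat nascent transcripts, often repress exons, and also act in RNA export, stability and transport into dendrites. Many SR genes hold down their own level through a poison exon or a kept intron that brings an early stop codon and hands the transcript to nonsense-mediated decay. SR proteins gather in nuclear speckles, where the long noncoding RNA Malat1 is also found.

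The forms with an early stop codon are shown first because they could be followed as transcripts of their own in the tables. Each sequence below runs 5′ to 3′ from the last 30 bases of the exon before to the annotated stop codon in the extra stretch, which is in capitals. The extra exon of the noncoding Srsf3 transcript (NR_036613) lies at chr17:29039454-29039909 on the plus strand and is 456 bases long, with its stop codon at 29039485 to 29039487. The extra exon of the noncoding Srsf7 transcript (NR_036615) lies at chr17:80204622-80205081 on the minus strand and is 460 bases long, with its stop codon at 80205054 to 80205056. The second Srsf1 transcript (NM_001078167), annotated as protein-coding, keeps an intron of 196 bases at chr11:88049216-88049411 on the plus strand and meets a stop codon at 88049267 to 88049269. Sequences and positions are from GENCODE M21 on GRCm38 (mm10).
Srsf3 poison exon: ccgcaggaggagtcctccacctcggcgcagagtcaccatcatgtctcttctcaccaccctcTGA
Srsf7 poison exon: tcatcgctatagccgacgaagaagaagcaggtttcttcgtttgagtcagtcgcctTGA
Srsf1 kept intron: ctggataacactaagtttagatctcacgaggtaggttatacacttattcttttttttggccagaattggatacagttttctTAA
The stop codon ends 34 bases into the Srsf3 exon, 28 bases into the Srsf7 exon and 54 bases into the Srsf1 intron.

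The libraries held 9323607 to 15707516 estimated counts, and the 31 members took 0.459% (SS mouse 18) to 0.553% (SS mouse 21) of them. Pan-neuronal markers summed to between 5494 and 6890.3 CPM (counts scaled to library size), and all 5 dentate granule, all 6 CA1 and all 5 CA3 markers were measured. The CA1 markers summed to 438 to 646 CPM in C, to 372, 543 and 415 in SS mice 18, 19 and 21, to 568 to 686 in SES and to 668 to 694 in SER. Their median log2 fold change was -0.41 in SS over C (5 of 6 negative, 1 called lower), 0.72 in SES over SS (6 of 6 positive, 0 called) and 0.71 in SER over SS (6 of 6 positive, 1 called higher). The dentate granule markers summed to 388 to 429 CPM in C and to 407, 518 and 555 in SS, with a median log2 fold change of 0.62 (5 of 5 positive, 1 called higher). SS mouse 18 stood apart from its group: across genes, its log2 CPM correlated with SS mice 19 and 21 at 0.955 and 0.951, whereas these correlated with each other at 0.991. In C mice 2, 8 and 12 Malat1 was at 505, 263 and 489 CPM. SS mouse 18 had a C-like 505 CPM of it, whereas SS mice 19 and 21 had 3761 and 5257. The 8 choroid plexus markers, all measured, summed to 5370 CPM in SS mouse 18 and 3711 in C mouse 2, and to 12.3 to 42.3 in the other C and SS mice. The 6 thalamus markers summed to 246 CPM in SS mouse 18 and 313 in C mouse 2, and to 90.8 to 148 in the other C and SS mice. The CA3 markers summed to 159 to 338 CPM in C and to 370, 215 and 186 in SS mice 18, 19 and 21. The 7 oligodendrocyte markers, all measured, summed to 10656 CPM in SS mouse 18 and to 3476 and 3355 in SS mice 19 and 21, with 5783 to 9505 in C. No marker of these lists was at 0 in all libraries. Results that rest on SS mouse 18 are given with and without it, and the part of these markers in the results below was not tested. In bulk tissue, fewer cells of a type and less RNA per cell cannot be told apart.

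Per kilobase of transcript, the members spanned a wide range. Hnrnpa3 had the highest mean over the 12 mice, at 199 CPM per kilobase (177 to 229), followed by Hnrnpk at 158 (149 to 187) and Hnrnpa2b1 at 158 (131 to 195). These 3 ranges overlapped. Hnrnpa3 and Hnrnpa2b1 bind and package many messenger RNAs, and Hnrnpk binds stretches rich in cytosine. Srsf5 was the SR gene with the highest mean, at 116 CPM per kilobase (60.8 to 163), and Srsf3 followed at 68.6 (58.0 to 85.9). Srsf12 at 9.28 and Srsf4 at 5.53 CPM per kilobase were the lowest of the 31 members.

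The first comparison asked how the splicing factors of stress-susceptible mice differed from those of controls. Hnrnpa1, Hnrnpa3, Hnrnpc and Srsf3 fell in SS and no member rose, so that 4 of 31 members were called lower and 0 higher. Of all 14541 genes tested, 4.63% were called lower, 5.21% higher and 9.83% in either direction. The families lay on different sides of 0: the median log2 fold change was 0.21 over the 11 Srsf genes and -0.09 over the 20 Hnrnp genes, against 0.02 over all genes. Of the Srsf genes 8 had a positive and 3 a negative fold change, and of the Hnrnp genes 6 were positive and 14 negative. The difference between the families was not tested. Groups did not overlap for 10 members, 4 higher and 6 lower. Of all genes, groups lay apart for 12.7% on the higher side, 14.2% on the lower and 26.9% in all. Unadjusted p-values under 0.05 were found for 10 members and for 28.2% of all genes. The 4 that were higher in all SS mice were Srsf2, Srsf4, Srsf9 and Srsf12.

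**Figure D1:**
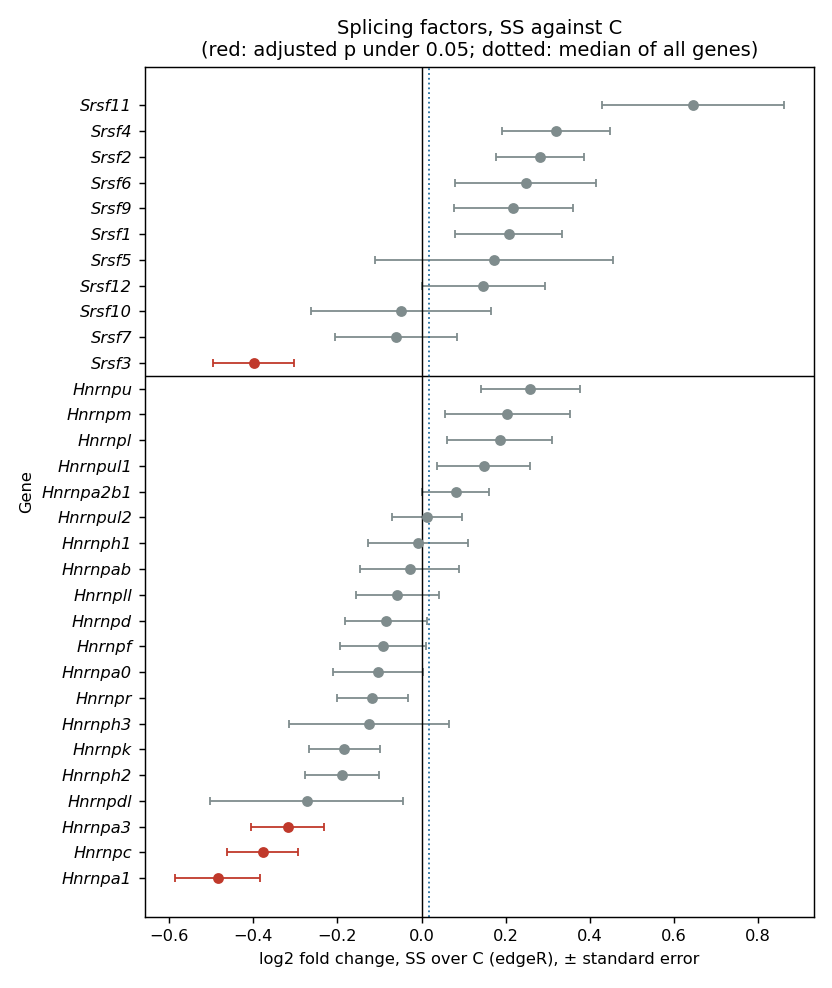
Log2 fold change of each of the 31 members in SS over C, with its standard error (3 mice a group), Srsf genes above the line and Hnrnp genes under it. The 4 members in red passed the threshold, all on the lower side, from -0.48 (Hnrnpa1) to -0.32 (Hnrnpa3), and Srsf11 at 0.65 has the largest positive value with a wide error.

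Hnrnpa1, a shuttling repressor of exons that competes with SR proteins for binding, was at 210.3, 201 and 198 CPM in C mice 2, 8 and 12 and at 131, 147 and 157 in SS mice 18, 19 and 21. It was at 149, 152 and 138 CPM in SES mice 9, 10 and 12 and at 124, 159 and 135 in SER mice 6, 19 and 20. The C mice lay above all 9 restrained mice, whose 3 groups overlapped each other. The share of all genes with C above all 9 was not counted, here or for the members below. The log2 fold change of SS over C was -0.48 ± 0.10 (SE, adjusted p = 0.0229). Against the same C mice it was -0.55 ± 0.10 in SER (adjusted p = 0.0337) and -0.47 ± 0.10 in SES (adjusted p = 0.104). Hnrnpa1 was thus called lower in SS and SER and missed the threshold in SES.

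Hnrnpa3, a close relative of Hnrnpa1 that also takes part in RNA transport, was at 452, 432 and 462 CPM in C and at 333, 358 and 388 in SS. In SES it was at 377, 373 and 390.3 CPM and in SER at 329.7, 378 and 386. Again the C mice lay above the other 9 without overlap. The log2 fold change was -0.32 ± 0.09 in SS over C (adjusted p = 0.0385), -0.24 ± 0.09 in SES over C (adjusted p = 0.222) and -0.30 ± 0.09 in SER over C (adjusted p = 0.0996).

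Hnrnpc, which binds runs of uridine and keeps cryptic exons out, was at 224, 275 and 253 CPM in C and at 194, 189.8 and 196 in SS. The SS mice lay close together, with an SD of 2.98 CPM (n = 3), and under every C mouse. SES mice were at 223, 204 and 204 CPM and SER mice at 225, 223 and 211, so that the SER values reached the lowest C mouse. The log2 fold change was -0.38 ± 0.09 in SS over C (adjusted p = 0.0248), -0.26 ± 0.08 in SES over C (adjusted p = 0.190) and -0.19 ± 0.09 in SER over C (adjusted p = 0.249).

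Srsf3, the smallest SR protein, which also couples splicing to RNA export, was at 195, 225 and 227 CPM in C and at 176, 148 and 167 in SS. SES mice were at 185, 177 and 161 CPM and SER mice at 176, 156 and 162. Every restrained mouse lay under every C mouse. The log2 fold change was -0.40 ± 0.10 in SS over C (adjusted p = 0.0285), -0.31 ± 0.10 in SES over C (adjusted p = 0.166) and -0.39 ± 0.10 in SER over C (adjusted p = 0.0663).

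**Figure D2:**
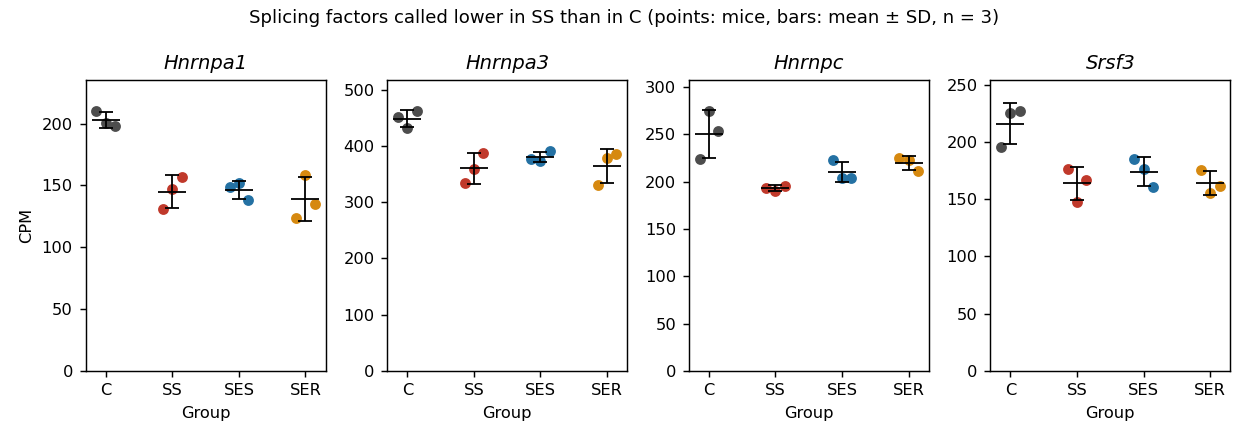
CPM of Hnrnpa1, Hnrnpa3, Hnrnpc and Srsf3 in each mouse by group, with the mean and SD of 3 mice. In all panels the SS points lie under the C points, and for Hnrnpa1, Hnrnpa3 and Srsf3 the SES and SER points do as well.

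Without SS mouse 18 there were 7 calls, the same 4 genes lower and Srsf11, Srsf6 and Hnrnpu higher, but 25.7% of all genes were then called, 12.2% lower and 13.6% higher, so that the members' share was near that of all genes. Leaving out C mouse 8, or SS mouse 19 or 21, left no member and no other gene called. Without C mouse 12 no member and 0.528% of all genes were called. Hnrnpa3 was not called without C mouse 2, where 5.75% of all genes were. Correcting each library for GC content and transcript length, chosen after the data had been seen, left 0 of 14541 genes called and brought the fold changes to -0.27 (Hnrnpa1), -0.17 (Hnrnpa3), -0.21 (Hnrnpc) and -0.19 (Srsf3).

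Srsf11, an SR-related factor found at the 3′ ends of introns, had the largest positive value of the members in SS over C. It was at 66.4, 67.9 and 73.8 CPM in C, at 62.0, 125 and 138 in SS, at 75.1, 98.9 and 81.8 in SES and at 71.9, 70.0 and 63.8 in SER. SS mice 19 and 21 were the highest of the 12 mice and SS mouse 18 the lowest, so the groups overlapped. The log2 fold change of 0.65 ± 0.22 was not called (adjusted p = 0.0711), and without SS mouse 18 it was 0.91 (adjusted p = 8.40e-05).

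Hnrnpu, a scaffold protein that ties RNA to chromatin, was likewise highest in SS mice 19 and 21. It was at 353, 381 and 369.5 CPM in C, at 351, 477 and 492 in SS, at 373, 415 and 355 in SES and at 366, 329.9 and 324 in SER. Its log2 fold change in SS over C was 0.26 ± 0.12 (adjusted p = 0.170), and 0.39 (adjusted p = 0.00622) without SS mouse 18. Srsf6, an SR protein that acts in exon choice in tau and other neuronal transcripts, was at 94.3, 85.6 and 88.8 CPM in C, at 72.9, 121 and 125 in SS, at 98.7, 114 and 87.3 in SES and at 82.3, 89.4 and 74.9 in SER. Again SS mouse 18 was the lowest of the 12 mice and SS mice 19 and 21 were the highest. Its log2 fold change in SS over C was 0.25 ± 0.17 (adjusted p = 0.360), and 0.45 (adjusted p = 0.00871) without SS mouse 18. SS mouse 18 also differed from the other SS mice in the median of the Srsf genes. The median Srsf gene was at a log2 ratio of -0.05 to the C mean in SS mouse 18 and at 0.24 and 0.32 in SS mice 19 and 21, with 5, 9 and 9 of 11 genes above the C mean. The median Hnrnp gene was at -0.11, -0.11 and -0.07 in the same mice.

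Other SR genes were higher in all SS mice than in all C mice without passing the threshold. Srsf2, which binds exonic enhancers and sits at the core of nuclear speckles, was at 90.7, 83.1 and 99.8 CPM in C and at 106, 112 and 114 in SS, with 108, 115 and 99.5 in SES and 105, 89.7 and 81.7 in SER. Its log2 fold change in SS over C was 0.28 ± 0.10 (adjusted p = 0.0971). Srsf4, the SR protein with the lowest level per kilobase, was at 10.0, 12.1 and 10.1 CPM in C, at 14.2, 13.2 and 13.0 in SS, at 12.9, 12.0 and 13.0 in SES and at 12.9, 12.2 and 14.4 in SER. Its log2 fold change in SS over C was 0.32 ± 0.13 (adjusted p = 0.121). The 3 SS values lay above the highest C mouse in both genes.

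Among the most abundant hnRNPs, Hnrnpk was at 498, 425 and 461 CPM in C, at 434, 398 and 387 in SS, at 403, 401 and 423 in SES and at 401, 423 and 426 in SER. C and SS overlapped, and the log2 fold change was -0.18 ± 0.08 (adjusted p = 0.170). Hnrnpul2, an hnRNP U-like protein that also acts in DNA repair, was at 314, 317 and 304 CPM in C, at 347, 291 and 308 in SS, at 313, 303 and 320.2 in SES and at 337, 311 and 303 in SER. All 4 groups overlapped, with a log2 fold change of 0.01 ± 0.08 in SS over C (adjusted p = 0.936). Hnrnph2, an X-linked binder of guanine runs, was at 178, 168 and 165 CPM in C and at 153, 144 and 151 in SS, lower in all SS mice, with a log2 fold change of -0.19 ± 0.09 (adjusted p = 0.176). SES mice were at 149.9, 145 and 152 CPM of Hnrnph2 and SER mice at 129.7, 162 and 152, all under the lowest C mouse.

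**Figure D3:**
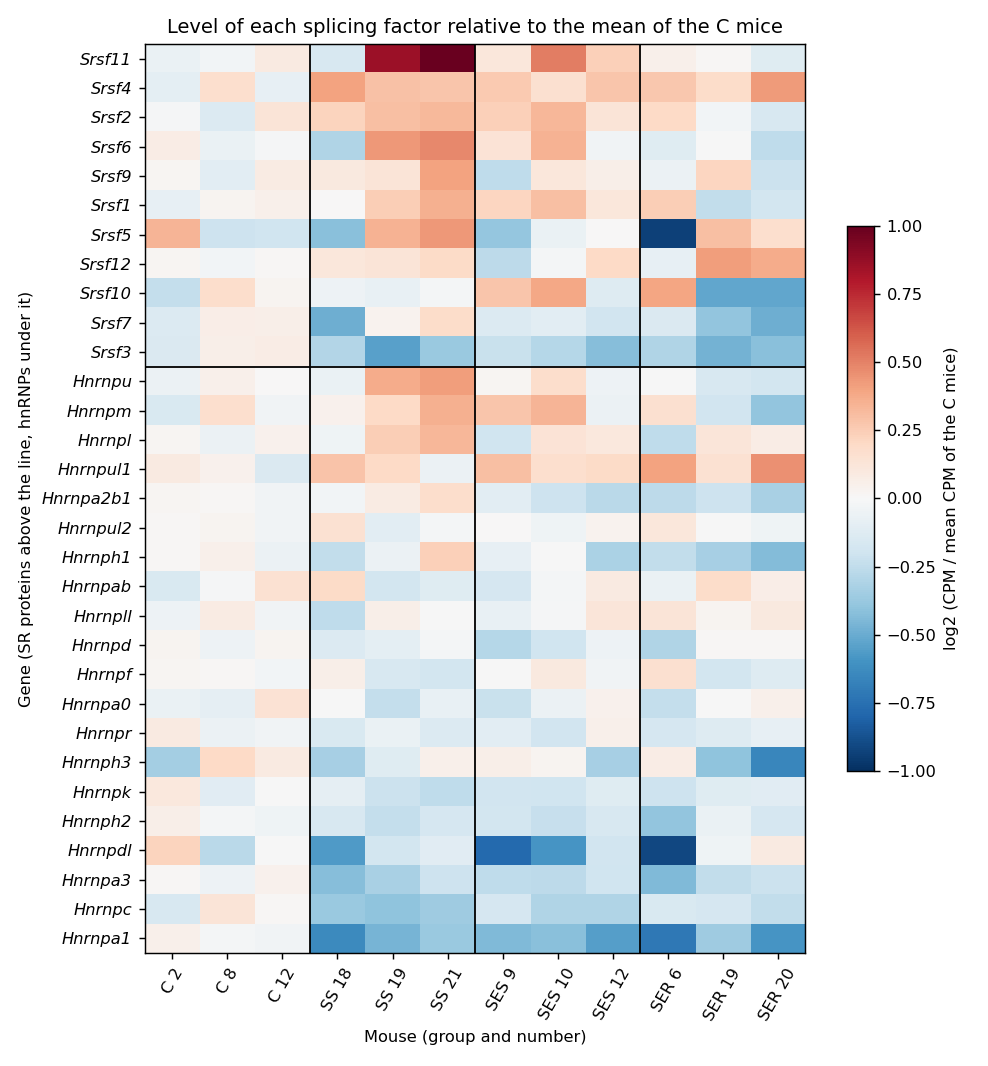
Each cell gives the log2 ratio of a member's CPM in 1 mouse to the mean CPM of the C mice, with Srsf genes above the horizontal line and Hnrnp genes under it. Hnrnpa1 is under the C mean in all 9 restrained mice, Srsf11 is darkest in SS mice 19 and 21, and SER mouse 6 differs from SER mice 19 and 20 in Srsf5, Srsf10 and Hnrnpdl.

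The next comparisons asked what running went with in restrained mice. In SES against SS 0 of 31 members were called, as were 0% of all genes, and 1 member had an unadjusted p under 0.05 against 9.01% of all genes. Groups did not overlap for 1 member on the higher side, Hnrnpc, and 1 on the lower, against 6.33% and 5.92% of all genes (12.2% together). The member with that p, and the one lower without overlap, was Hnrnpa2b1, a reader of methylated adenosine that carries messenger RNAs into dendrites. It was at 279.8, 278 and 269 CPM in C, at 270.4, 292 and 311 in SS, at 257, 239 and 228 in SES and at 229, 238 and 220.5 in SER. All 6 running mice lay under all 6 mice without a wheel, and the share of all genes with this pattern was not counted. The log2 fold change was -0.27 ± 0.08 in SES over SS (adjusted p = 0.524) and -0.35 ± 0.08 in SER over SS (adjusted p = 0.104). Over C it was -0.19 ± 0.08 in SES (adjusted p = 0.268) and -0.26 ± 0.08 in SER (adjusted p = 0.109), and none of these 4 values was called. SES and SER were compared with the same SS mice and the same C mice.

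In SER against SS 0 of 31 members were called, against 0.0206% of all genes called higher, 0.0275% lower and 0.0481% in either direction. Unadjusted p-values under 0.05 were found for 8 members, and for 18.2% of all genes. Groups did not overlap for 1 member higher and 3 lower, against 8.84% and 8.1% of all genes (16.9% together). The median log2 fold change was -0.23 over the Srsf genes and 0.01 over the Hnrnp genes, against -0.02 over all genes, and 9 of 11 Srsf genes were on the lower side. On the log2 scale Srsf11 was at -0.66 ± 0.22 in SER over SS (adjusted p = 0.148), Hnrnpu at -0.37 ± 0.12 (adjusted p = 0.141) and Srsf2 at -0.27 ± 0.10 (adjusted p = 0.205). Hnrnph1, which binds guanine runs like Hnrnph2, was at 196, 202 and 187 CPM in C, at 164, 186 and 229.9 in SS, at 184, 194 and 156 in SES and at 164, 155 and 144 in SER. Its 3 SER values lay under the SS values, the highest of them by less than 1 CPM, with a log2 fold change of -0.33 ± 0.12 (adjusted p = 0.186).

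Leaving out SS mouse 18 changed these counts and those over all genes. Of SES against SS, 3 members were then called, all lower: Srsf11 (-0.63, adjusted p = 0.00440), Hnrnpa2b1 (-0.32, adjusted p = 0.0272) and Hnrnpu (-0.35, adjusted p = 0.0303). Of all genes 8.69% were called in that fit, 5.43% lower and 3.26% higher. Of SER against SS, 6 members were then called, all lower: Srsf11 (-0.93), Srsf6 (-0.57), Hnrnpu (-0.50), Srsf7 (-0.44), Hnrnph1 (-0.42) and Hnrnpa2b1 (-0.39), with adjusted p from 0.000129 to 0.0173. Of all genes 16.5% were called in that fit, 9.00% lower and 7.49% higher. The SS group then held mice 19 and 21, which had the highest Malat1 of all 12.

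Between SES and SER, told apart by behaviour, 0 of 31 members were called, against 0.0275% of all genes called, all of them higher. No member had an unadjusted p under 0.05, against 3.72% of all genes, and DESeq2 also called 0 members. The smallest p was that of Hnrnpm, a regulator of alternative exons, at a log2 fold change of 0.32 ± 0.15 in SES over SER (adjusted p = 1.00), with overlapping groups. Srsf11 was the 1 member higher in all SES than in all SER mice (5.4% of all genes), and none was lower in all of them (5.36%, 10.8% together). Its log2 fold change was 0.31 ± 0.22 (adjusted p = 1.00). Spread within SER was wide for a few members. Srsf5 was at 94.0 CPM in SER mouse 6 and at 221 and 201 in SER mice 19 and 20, Hnrnpdl at 99.4, 182 and 199, and Srsf10 in the opposite order at 107, 56.7 and 56.7.

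Against the shared C mice, 0 of 31 members were called in SES, where 0.179% of all genes were called, and 8 had an unadjusted p under 0.05, as did 16.2% of all genes. In SER 1 member, Hnrnpa1, was called lower, where 0.337% of all genes were called lower, 0.853% higher and 1.19% in either direction. Unadjusted p-values under 0.05 were found there for 10 members and for 18.6% of all genes. The call of Hnrnpa1 in SER was lost without C mouse 2, 8 or 12, SES mouse 9, or SER mouse 6 or 20, where 0.0407% to 0.434% of all genes were called, and in the GC and length correction (-0.38, adjusted p = 0.172), where 0.131% were. Without SS mouse 18 SER against C had 4 member calls, with 5.39% of all genes called (2.07% lower), and SES against C had 1, with 3.71% of all genes called. Those 4 were Hnrnpa1, Hnrnpa2b1, Hnrnpa3 and Srsf3, all lower. Groups did not overlap for 10 members in SES over C, 3 higher and 7 lower, where 12.8% of all genes were higher without overlap, 13.2% lower and 26% either. In SER over C they did not overlap for 10 members, 2 higher and 8 lower, where 12.6% of all genes were higher without overlap, 12.7% lower and 25.3% either. Hnrnpul1, an hnRNP U-like protein that acts at sites of DNA damage, was one of those that were higher. It was at 103, 100.1 and 87.9 CPM in C, at 118, 111 and 93.2 in SS, at 119, 109 and 111 in SES and at 128, 108 and 133 in SER. Its log2 fold change was 0.34 ± 0.11 in SER over C (adjusted p = 0.128) and 0.22 ± 0.11 in SES over C (adjusted p = 0.341).

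The transcripts of 17 members with more than 1 measured transcript were tested for a change in their shares of the gene. No member was called in SS against C, SES against SS, SER against SS or SES against SER, where 0.363%, 0.195%, 0.474% and 0.0558% of the 3584 genes tested were called. In SS against C, 4 of the 17 had an unadjusted p under 0.05, against 13.7% of all genes tested, and these were Srsf7, Srsf1, Srsf3 and Hnrnpk. The forms with an early stop codon printed above belong to the first 3. These shares rest on how the authors' counting divided reads between transcripts, a step not described in the sources used here.

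The Srsf3 form with the poison exon made up 3.83%, 6.81% and 4.76% of the gene's estimated counts in C mice 2, 8 and 12 and 9.00%, 12.5% and 11.4% in SS mice 18, 19 and 21. It made up 6.01%, 8.14% and 8.43% in SES and 5.84%, 7.73% and 6.47% in SER. All SS mice lay above all other mice, SS mouse 18 included. These shares rest on 80, 215 and 126 counts of the form in C and on 157, 236 and 225 in SS. Relative to the gene, the form had a log2 change of 0.74 in SS over C, and the gene's test of shares had an adjusted p of 0.102. The coding transcript (NM_013663) had a log2 fold change of -0.49 ± 0.10 in SS over C (adjusted p = 0.0577) when transcripts were tested one by one, and the poison exon form one of 0.66 ± 0.23 (adjusted p = 0.160).

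The Srsf7 form with the poison exon made up 8.38%, 8.01% and 3.69% of the gene's counts in C and 7.70%, 29.4% and 31.3% in SS. It made up 19.4%, 17.7% and 15.5% in SES and 15.2%, 17.0% and 12.0% in SER, where every mouse lay above every C mouse. SS mice 19 and 21 were the highest, and SS mouse 18 lay among the C mice. Summed over its transcripts, Srsf7, an SR protein with a zinc knuckle, was at 83.7, 96.3 and 95.5 CPM in C and at 65.6, 93.9 and 105 in SS, which overlapped. The form had a log2 change of 1.32 relative to the gene in SS over C, with an adjusted p of 0.0591 for the gene's test of shares. Without SS mouse 18 the gene was called, as were 1.55% of the genes tested for shares.

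The Srsf1 form that keeps the intron made up 7.69%, 5.44% and 11.1% of the gene's counts in C and 4.41%, 42.3% and 50.3% in SS. It made up 12.8%, 18.0% and 20.8% in SES and 13.5%, 13.1% and 15.4% in SER. In counts it was at 121, 121 and 209 in C and at 68, 995 and 1178 in SS, and SS mouse 18 was the lowest of all 12 mice in share and in count. Srsf1, the founding SR protein, was at 147, 159 and 161 CPM in C and at 156, 184 and 199 in SS when its transcripts were summed. The form had a log2 change of 1.44 relative to the gene in SS over C, and the gene's test of shares had an adjusted p of 0.0825. Without SS mouse 18, Srsf1 was called in SS against C, in SES against SS and in SER against SS, where 1.55%, 0.374% and 1.44% of the genes tested were called.

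**Figure D4:**
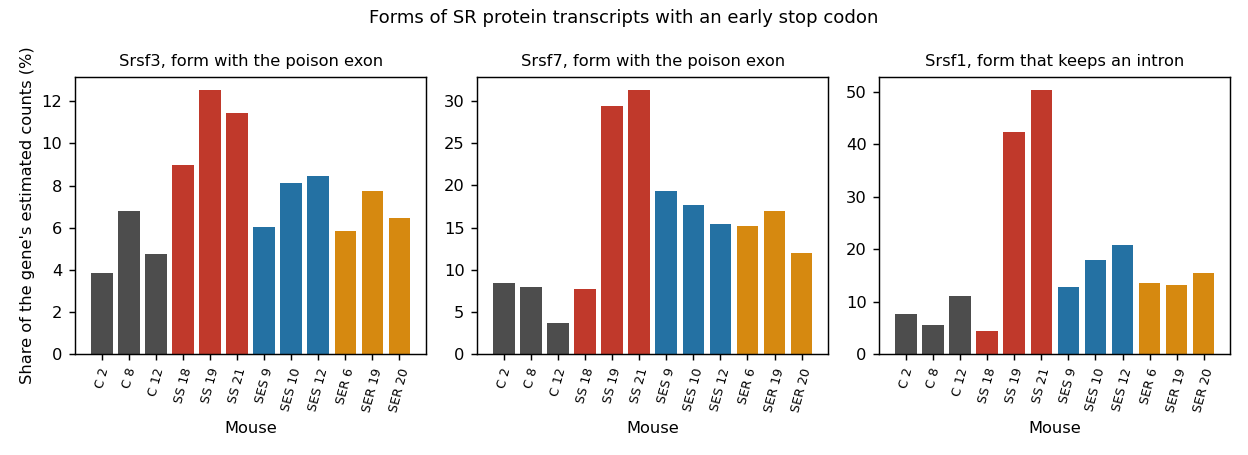
Share of the gene's estimated counts (percent) held by the Srsf3 and Srsf7 forms with a poison exon and the Srsf1 form with a kept intron, 1 bar a mouse. SS mice 19 and 21 have the highest bar in each panel, at 11.4% to 12.5% for Srsf3, 29.4% to 31.3% for Srsf7 and 42.3% to 50.3% for Srsf1, while SS mouse 18 is near the C mice for Srsf7 and Srsf1.

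The other noncoding transcripts varied less. The Hnrnpa2b1 one (NR_104468), which lacks an exon of 120 bases, held 8.96% to 14.1% of the gene's counts over the 12 mice, and the Hnrnpa1 one (NR_104427), with extra exons downstream, held 4.53% to 9.64%. The Srsf9 one (NR_036616) held 40.2% to 55.9%, and GENCODE M21 matches it to a protein-coding transcript. In all 3 the C and SS mice overlapped, except that the 3 SS shares of the Hnrnpa1 form (7.68% to 9.64%) lay above the C shares (4.94% to 7.16%). Of 67 member transcripts tested one by one, 0 were called in any of the 6 comparisons. Few of all 20402 transcripts tested were called: 2 in SS against C, 0 in SES against SS, 8 in SER against SS. A further 5 were called in SES against SER, 4 in SES against C and 25 in SER against C. In SS against C 17 of the 67 had an unadjusted p under 0.05, as did 19.4% of all transcripts tested.

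Member levels were then set beside Malat1 across the 12 mice with the group kept in the model. Malat1 itself rose in SS over C, at a log2 fold change of 2.92 ± 0.59 (adjusted p = 0.0223), with SS mouse 18 at the level of C. The speckle neighbour Neat1, the scaffold RNA of paraspeckles, was at 53.4, 27.3 and 37.8 CPM in C, at 50.1, 78.8 and 106 in SS, at 62.2, 75.5 and 66.0 in SES and at 49.2, 31.6 and 27.6 in SER. It rose in SS over C by 1.00 ± 0.28 (adjusted p = 0.0428), with SS mouse 18 again inside the C range. Of the 31 members 2 were called with a positive slope and 0 with a negative one, where 3.05% of 14540 genes had a called positive slope, 0.88% a negative one and 3.93% either. These were Srsf11 at 0.31 ± 0.05 log2 units per log2 unit of Malat1 (adjusted p = 0.00890) and Srsf6 at 0.21 ± 0.05 (adjusted p = 0.0406). The median slope was 0.08 over the Srsf genes and 0.04 over the Hnrnp genes, against -0.01 over all genes. None of the 4 members that fell in SS was called. Both slopes rested on the SS mice. Without SS mouse 18 they were 0.12 (adjusted p = 0.921) and 0.04 (adjusted p = 0.986), with no slope called for any gene, and without SS mouse 21 neither was called, with 0.414% of all genes called. Srsf6 was also not called without SS mouse 19 or SER mouse 20.

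**Figure D5:**
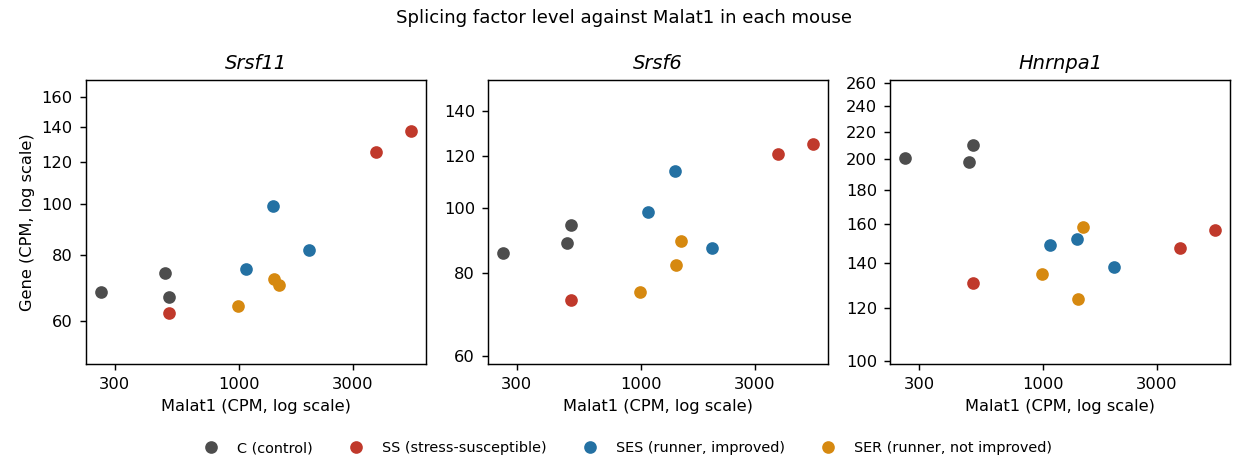
CPM of Srsf11, Srsf6 and Hnrnpa1 against CPM of Malat1, 1 point a mouse, both axes on a log scale and colours by group. SS mice 19 and 21 (3761 and 5257 CPM of Malat1) lie at the upper right for Srsf11 and Srsf6, and Hnrnpa1 is under the C mice in all restrained mice at any level of Malat1.

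Adding Malat1 as a covariate to SS against C left 0 members and 0 of 14541 genes called. The fold changes of Hnrnpa1 (-0.64), Hnrnpa3 (-0.44), Hnrnpc (-0.33) and Srsf3 (-0.26) kept their direction. The call of Hnrnpa1 in SER against C held with it, at -0.65 (adjusted p = 0.0313), with 0.66% of all genes called.

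Genes that work with the SR proteins and hnRNPs were read from lists that do not contain the members. In SS over C 5.21% of all genes were called higher and 4.63% lower, the shares to set beside the counts that follow. All calls of these lists in SS against C were lost, with those of all other genes, when C mouse 8 or SS mouse 19 or 21 was left out, when those groups were fitted alone, with Malat1 as a covariate and in the GC and length correction. No gene of these lists was called without C mouse 12 either. Of 14 kinases and import factors of SR proteins, 2 rose and 0 fell in SS over C, the muscle-type kinase Srpk3 at 1.61 ± 0.45 (adjusted p = 0.0412) and Dyrk1b at 0.45 ± 0.11 (adjusted p = 0.0284). Of 32 SR-related proteins, 13 rose and 0 fell, with a median of 0.43 against 0.02 over all genes. Among them were Srrm2, the speckle scaffold, at 1.41 ± 0.30 (adjusted p = 0.0239), Rsrp1 at 1.18 ± 0.25 (adjusted p = 0.0239), Luc7l2, a U1 partner, at 0.43 ± 0.09 (adjusted p = 0.0244) and Acin1, part of a complex at exon junctions, at 0.65 ± 0.15 (adjusted p = 0.0248). Srrm2 was at 195, 165 and 152 CPM in C and at 186, 602 and 574 in SS. For Srrm2, SS mouse 18 lay within C and the other SS mice above it. For Srsf11, SS mouse 18 lay under every C mouse and the other SS mice above them. In the Malat1 model 11 of these 32 genes had a called positive slope and 0 a negative one, with a median slope of 0.15. Without SS mouse 18, 22 of the 32 genes were called higher in SS over C and 1 lower, where 13.6% and 12.2% of all genes were. Without C mouse 2, 3 were called higher and 0 lower, where 2.53% and 3.22% of all genes were.

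Of 43 other splicing regulators tested, 4 rose and 2 fell in SS over C. Matr3, a nuclear matrix protein that represses exons, fell by 0.49 ± 0.09 (adjusted p = 0.0223), from 734, 787 and 764 CPM in C to 571, 523 and 538 in SS, with 697, 624 and 624 in SES and 572, 646 and 649 in SER. The SS mice, mouse 18 included, lay under every C and SES mouse. Celf3 rose by 0.70 ± 0.13 (adjusted p = 0.0223), Rbfox2, a neuronal exon regulator, by 0.35 ± 0.08 (adjusted p = 0.0283) and Khsrp by 0.42 ± 0.11 (adjusted p = 0.0296). Of 54 core spliceosome genes 2 rose and 5 fell, where 5.21% of all genes were called higher, 4.63% lower and 9.83% in either direction. Prpf40b rose by 0.86 ± 0.17 (adjusted p = 0.0223) and Snrnp70, the U1 protein, by 1.58 ± 0.34 (adjusted p = 0.0244). The Sm protein gene Snrpd1 fell by 0.54 ± 0.11 (adjusted p = 0.0239) and the Lsm ring gene Lsm7 by 0.48 ± 0.11 (adjusted p = 0.0268). Of 15 genes of nonsense-mediated decay 1 rose, the kinase Smg1 at 0.93 ± 0.26 (adjusted p = 0.0427), and 1 fell, Magohb of the exon junction complex at -0.60 ± 0.17 (adjusted p = 0.0426). Of 9 nuclear noncoding RNAs tested 6 rose, led by Malat1, Miat at 3.11 ± 0.65 (adjusted p = 0.0229), Meg3 at 2.79 ± 0.65 (adjusted p = 0.0268) and Snhg11 at 2.48 ± 0.63 (adjusted p = 0.0320).

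No gene of these lists was called in SES against SS, SER against SS, SES against SER or SES against C. Without SS mouse 18, 17 of the 32 SR-related genes were called lower in SES than in SS and 22 in SER than in SS, with 0 higher in either, where 5.43% and 9.00% of all genes were called lower. In SER against SS with all mice the smallest p of the SR-related list was that of Arglu1 at -0.88 (adjusted p = 0.0916), of the core spliceosome Prpf40b at -0.87 (adjusted p = 0.0844), of the kinases Srpk3 at -1.75 (adjusted p = 0.113) and of the noncoding RNAs Neat1 at -1.11 (adjusted p = 0.109). In SER against C, Scaf1 of the SR-related list rose by 0.47 ± 0.09 (adjusted p = 0.0358) and Rbfox2 by 0.40 ± 0.08 (adjusted p = 0.0417).

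The promoters of the 4 members called lower in SS were read for 4 short motifs on both strands. These were CCAAT, which factor NF-Y binds, GGGCGG, which Sp factors bind, TATAAA, the TATA box, and CCGGAAG, which Ets factors bind. Whether the 4 genes share a regulator was not tested. Windows ran from 250 bases before to 50 after the start site, and 29 of the 31 members had at least 1 entry, with 41 entries in all. CCAAT was in the promoters of all 4, in 51.2% of member promoters and in 37.4% of all 32851 promoters. GGGCGG was in those of Hnrnpa1 and Hnrnpa3, in 82.9% of member promoters and in 35.7% of all. TATAAA was in that of Srsf3, in 9.76% of member promoters and in 13.6% of all. CCGGAAG was in none of the 4 windows, in 24.4% of member promoters and in 8.86% of all. A match is a run of letters and not a measured site.

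The 250 bases before an annotated start site of Hnrnpa1 (chr15:103240147-103240396, plus strand), called in SS and SER, and of Srsf3 (chr17:29032410-29032659, plus strand), the SR gene that was called, are shown with every motif match in capitals. The Hnrnpa1 window is that of the gene's first entry. It lies inside the gene, downstream of the gene's annotated start at 103239943. Both are RefSeq sequences of GRCm38.p6.
Hnrnpa1 promoter: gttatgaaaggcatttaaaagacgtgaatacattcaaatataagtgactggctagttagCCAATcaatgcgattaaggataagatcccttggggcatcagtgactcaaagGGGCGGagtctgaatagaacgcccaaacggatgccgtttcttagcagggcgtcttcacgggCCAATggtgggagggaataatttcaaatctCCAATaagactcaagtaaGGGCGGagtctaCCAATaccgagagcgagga
Srsf3 promoter: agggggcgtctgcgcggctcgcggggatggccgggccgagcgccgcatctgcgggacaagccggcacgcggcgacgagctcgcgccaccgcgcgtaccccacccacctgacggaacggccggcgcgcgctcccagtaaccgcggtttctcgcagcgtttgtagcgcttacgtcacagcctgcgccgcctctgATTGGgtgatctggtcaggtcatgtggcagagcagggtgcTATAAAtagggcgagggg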

How the data were processed

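Libraries from the ventral hippocampus of 12 mice were made with a directional kit from 1.3 µg of total RNA, per the labels' protocols. The authors deposited whole-number estimated counts per RefSeq transcript, not normalized. TopHat and mm10 were used, per the submitters' processing notes. How reads were counted (program, strand, annotation) is not given in the sources used here, and overlapping genes, pseudogene copies or isoforms may share reads.

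Counts were summed per gene symbol, and filterByExpr (minimum 10) left 14541 genes, all 31 members included. One edgeR 4.0.16 (R 4.3.3) quasi-likelihood fit of all 12 libraries with TMM factors (0.97 to 1.039) gave all adjusted p-values (Benjamini-Hochberg over all genes, called under 0.05) with 8 residual degrees of freedom. Scripts were tested on simulated data. CPM use TMM-scaled totals, and standard errors come from the F statistic. Transcript shares were tested with diffSpliceDGE, transcripts also singly, and Malat1 as log2 CPM beside the group factor. Each library is 1 mouse by its label, and p-values measure the spread between these mice. No 2 libraries of a group were alike within counting noise.

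Members and gene lists were chosen with earlier results of these data known. Named in full were called members, the 12 with the smallest p, the 4 with the highest mean CPM and those called in the Malat1 and transcript models, of other lists up to 4 called genes each. Alternatives covered scaling, filters, DESeq2 1.42.0, limma-voom (limma 3.58.1), covariates, fewer groups and left-out mice.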

Additional observations from a re-analysis of the deposited data

How the results depend on the processing

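Members called in SS against C numbered 4 with other scaling, no filter or a stricter one, and limma-voom (7.07% to 10.2% of all genes). Members called numbered 5 with DESeq2 (15.6% of the genes given an adjusted p) or with a choroid plexus covariate (13.2% of all genes). They numbered 0 when the 2 groups were fitted alone, with a Malat1 covariate, with SS mouse 18 as the sole SS mouse, and with the GC and length correction, and 0 to 7 when 1 mouse was left out. In each of those 4 settings 0 of all genes tested were called, against 9.83% in the reported fit, and with 1 mouse left out 0 to 25.7%, so that the losses were not particular to the members. The 2-group and left-out fits held fewer libraries, and the cause of the losses was not tested. SES against SS gave 0 to 3 with 1 mouse left out, where 0% to 8.69% of all genes were called. It gave 3 without C mouse 2 and SS mouse 18. SER against SS gave 1 with DESeq2 (Hnrnpa2b1) and 6 without both mice. With 1 mouse left out it gave 0 to 6, where 0.0271% to 16.5% of all genes were called. SES against C gave 1 with DESeq2, 3 without both mice and 1 with the 2 groups alone, where 160 of 14348 genes were called. With 1 mouse left out it gave 0 to 1, where 0% to 3.71% of all genes were called. SER against C gave 4 with DESeq2, 3 without both mice and 0 with the GC and length correction. With 1 mouse left out SER against C gave 0 to 4, where 0.0407% to 5.39% of all genes were called. Without both mice 9.71% of all genes were called in SES against SS, 17.5% in SER against SS, 6.31% in SES against C and 5.41% in SER against C. With DESeq2 4.16%, 3.43% and 6.54% of the genes given an adjusted p were called in SER against SS, SES against C and SER against C. SES against SER gave 0 under all alternatives run.

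Members called for transcript shares ranged from 0 to 2 (SS against C), 0 to 1 (SES against SS) and 0 to 1 (SER against SS) with 1 mouse left out. Of all genes tested for shares, 0.241% to 1.55%, 0% to 0.43% and 0.294% to 1.44% were called in these fits. Without SER mouse 20, Srsf7 was called in SS against C. Without the group factor the Malat1 slope was called for 4 members, 2 in each direction. Of all genes 19.1% were called in that fit, 10.6% with a positive slope and 8.48% with a negative one. With 1 mouse left out the slope was called for 0 to 3 members and for 0% to 6.86% of all genes. No called gene changed direction under the alternatives run. Over its alternatives the adjusted p ranged from 0.000533 to 0.413 for Hnrnpa1 in SS over C, from 0.00610 to 0.413 for Hnrnpa3, from 0.00136 to 0.441 for Hnrnpc and from 0.00234 to 0.501 for Srsf3. Hnrnpa3 lost its call in 14 of 24 alternatives and each of the other 3 genes in 8 of 24.

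The 3 mice a group and the spread between them (a biological coefficient of variation of 15.7%) limit the precision of every fold change given. A count of 0 allows 3 counts, or 0.189 to 0.327 CPM, for counting error alone, a floor that no member reached. No paired analysis was possible because C and SES share only mouse number 12, SS and SER share only number 19, and no label says that a number marks a pair.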
